A study of Mus musculus with 6 samples.

Results

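Late neutrophil granule genes encode proteins that a developing neutrophil makes for the most part after the promyelocyte stage, when it fills its secondary and tertiary granules and its cytosol. The 9 genes Ltf, Camp, Ngp, Lcn2, S100a8, S100a9, Fcnb, Chil3 and Cd177 were taken by symbol from the probe annotation. They were chosen with earlier results of these data known, and each is described whatever its values. Each had 1 probe set that names it alone, so 9 of the 18193 genes measured with such a probe set are described here. A further probe set is shared by Chil3 and Chil4 and was not counted as a member.

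Neutrophil granules are made in waves, with serine proteases and myeloperoxidase first, and lactoferrin, cathelicidin and lipocalin later. The transcription factor C/EBP-epsilon is known to be needed for the later wave. Mouse bone marrow cells grown in GM-CSF can give rise to neutrophils, macrophages and dendritic cells, so transcripts of these genes are known from early GM-CSF cultures.

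The study measured total RNA on 6 Affymetrix arrays, 2 in each of 3 groups, from bone marrow cells of C57BL/6 mice with no genetic change named in the labels. GM-TNFa-DC are dendritic cells obtained from the progenitors with GM-CSF and the inflammatory cytokine TNFa. GM-DC are dendritic cells obtained from them with GM-CSF alone. GM-MPP are those multipotent progenitors, grown with GM-CSF on top of stem cell cytokines, so that all 3 groups saw GM-CSF. The labels give neither times nor whether the 2 arrays of a group, numbered 1 and 2, came from separate animals or cultures, so p-values reflect only how far these samples spread, and that spread may be technical. The log2 levels had array medians between 4.67 and 4.77 and array maxima between 14.02 and 14.43. Levels near a median are partly background and levels near a maximum are compressed, so that folds at either end are not exact. Here a gene is called higher or lower where its limma p, Benjamini-Hochberg adjusted over all genes, is under 0.05. Of 16 dendritic cell markers, 15 had a higher mean in GM-DC than in GM-MPP. Against 1.87% of all genes called higher and 2.63% called lower, 12 of the markers were called higher and 1 lower. The 1 called lower was Flt3, a cytokine receptor of progenitors and dendritic cells (-1.98 ± 0.36, adjusted p = 0.0443), which was also called lower in GM-TNFa-DC than in GM-MPP (adjusted p = 0.0481). Among those called higher was Itgax, which encodes CD11c, at 11.52 and 10.75 on the GM-DC arrays and at 4.47 and 4.49 on the GM-MPP arrays.

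Same-numbered dendritic cell arrays differed from their partners in the same way, which touches every result below. The poly-A transcripts spiked into the RNA gave more signal on number 1 than on number 2 in every group and in all 24 probe sets. The median excess was 2.58-fold for GM-TNFa-DC, 2.13-fold for GM-DC, and 2.43-fold for GM-MPP. All 16 dendritic cell markers had a lower mean on number 2 than on number 1 of the dendritic cell arrays. Of these, 12 were called lower, against 5.41% of all genes. Because of this split, each gene is given on each array.

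The DNA just before the start of transcription is shown for some of the 9 genes, namely the chromosome 9 genes Ltf, Camp and Ngp, the neighbours S100a8 and S100a9, and Lcn2. The sequences are the 150 bases before the start in RefSeq's promoter table for mouse build GRCm38.p6, read 5′ to 3′ along the gene's strand. They lie as follows: Ltf at chr9:111019142-111019291 on the plus strand, Camp at chr9:109849457-109849606 on the minus strand, Ngp at chr9:110419658-110419807 on the plus strand, S100a8 at chr3:90668921-90669070 on the plus strand, S100a9 at chr3:90695722-90695871 on the minus strand and Lcn2 at chr2:32387740-32387889 on the minus strand. Capitals mark matches on either strand to TTGCNNAA for C/EBP, to GAGGAA for PU.1 or to the NF-kB pattern of GGG and CC with any 5 bases between them. Matches may overlap each other, and Camp and S100a9 have none in the stretch shown.
Ltf: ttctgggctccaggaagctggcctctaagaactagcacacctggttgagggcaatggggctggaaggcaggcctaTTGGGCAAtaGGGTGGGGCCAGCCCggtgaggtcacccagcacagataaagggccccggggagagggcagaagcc
Camp: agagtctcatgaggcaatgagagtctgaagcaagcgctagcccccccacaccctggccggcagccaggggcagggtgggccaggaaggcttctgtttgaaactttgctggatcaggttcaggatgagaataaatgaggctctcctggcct
Ngp: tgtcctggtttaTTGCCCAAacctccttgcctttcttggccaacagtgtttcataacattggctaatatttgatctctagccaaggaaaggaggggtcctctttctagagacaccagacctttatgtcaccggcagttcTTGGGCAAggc
S100a8: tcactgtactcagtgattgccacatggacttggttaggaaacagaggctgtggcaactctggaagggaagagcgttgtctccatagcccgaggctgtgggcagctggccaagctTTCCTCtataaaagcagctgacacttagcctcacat
S100a9: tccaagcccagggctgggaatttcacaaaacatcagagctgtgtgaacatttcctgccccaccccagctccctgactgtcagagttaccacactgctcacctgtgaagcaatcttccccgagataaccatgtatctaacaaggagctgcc
Lcn2: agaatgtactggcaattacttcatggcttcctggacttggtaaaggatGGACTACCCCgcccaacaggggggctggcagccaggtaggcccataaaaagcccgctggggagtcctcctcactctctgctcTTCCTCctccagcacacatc
In the 250 bases before the start, TTGCNNAA was found in 5 of the 9 genes (Fcnb, Lcn2, S100a9, Ngp and Ltf), against 9.56% of all 32851 promoters of that length. GAGGAA was found in 4 (Lcn2, S100a8, Cd177 and Ltf), against 23.3% of all, and the NF-kB pattern in 4 (Lcn2, Chil3, Cd177 and Ltf), against 45.8%. Some of these matches lie before the printed stretch, and a match is a description of letters only. Of the 9 genes, 3 lie on chromosome 9 (Ltf, Camp and Ngp), 3 on chromosome 3 (S100a8, S100a9 and Chil3), 2 on chromosome 2 (Lcn2 and Fcnb) and Cd177 on chromosome 7. S100a8 and S100a9 have 0 protein-coding genes between them, while 8 lie between Camp and Ngp.

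Setting GM-DC against GM-MPP asks how the cells changed as dendritic cells arose from progenitors under GM-CSF. All 9 genes were lower on both GM-DC arrays than on either GM-MPP array, with a median log2 difference of -3.41, against 0.02 over all genes tested. Cd177, Fcnb and S100a8 fell past the threshold, and none rose (limma, Benjamini-Hochberg adjusted p under 0.05 over all 18193 genes). These 3 of 9 compare with 2.63% of all genes called lower and 1.87% called higher. The 9 of 9 whose arrays did not overlap compare with 27% of all genes lower in that way, and 32.6% of all genes were lower on both array numbers. At least 2-fold lower on both array numbers were 6 of the 9, against 4.07% of all genes. Fewer cells of a type and less RNA per cell cannot be told apart in such bulk samples.

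Cd177, a surface and granule protein of neutrophils anchored in the membrane by a lipid, showed the clearest fall. Its level was 6.95 and 6.08 on GM-DC arrays 1 and 2, against 10.77 and 11.67 on GM-MPP arrays 1 and 2. The difference was -4.71 ± 0.50 (SE) on the log2 scale, 26.1-fold lower in GM-DC (limma adjusted p = 0.0130). Both GM-DC arrays lay far below both GM-MPP arrays.

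Fcnb, ficolin B, is a pattern recognition protein of the lectin complement pathway that mouse granulocytes and their precursors make. It stood at 4.98 and 5.37 in GM-DC and at 7.84 and 9.15 in GM-MPP, a difference of -3.32 ± 0.49 (adjusted p = 0.0280). Both GM-DC arrays were near the array median, so the 9.98-fold difference is not exact.

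S100a8 and S100a9 encode the paired subunits of calprotectin, a calcium and metal binding protein of the neutrophil cytosol. S100a8 was at 12.16 and 11.32 in GM-DC, against 13.81 and 13.83 in GM-MPP, and fell by 2.08 ± 0.33 (adjusted p = 0.0328), or 4.23-fold. S100a9 was at 12.60 on GM-DC array 1 and at 9.12 on GM-DC array 2, against 14.35 and 14.43 in GM-MPP. Its difference of -3.53 ± 1.25 was larger than that of S100a8 but did not pass (adjusted p = 0.185), and its GM-DC arrays lay far apart. All 4 GM-MPP values of the pair were close to the array maxima.

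Ltf, which encodes the iron-binding lactoferrin, was at 9.03 and 5.69 in GM-DC, against 11.15 and 12.51 in GM-MPP. Camp, the cathelicidin precursor of an antimicrobial peptide, was at 8.05 and 5.49 in GM-DC, against 8.93 and 11.43 in GM-MPP. Ngp, a granule protein of the cystatin-like family to which cathelicidins belong, was at 11.02 and 8.04 in GM-DC, against 14.26 and 14.13 in GM-MPP. For each of these genes the GM-DC array 1 stood between GM-DC array 2 and the progenitors. The log2 differences were -4.47 ± 1.15 for Ltf (adjusted p = 0.0985), -3.41 ± 1.09 for Camp (adjusted p = 0.1525) and -4.66 ± 1.04 for Ngp (adjusted p = 0.0705), none of which passed. With the array number in the model Ngp passed on all 6 arrays (adjusted p = 0.0267) but not on only the 4 arrays compared (adjusted p = 0.0834), where Cd177 (0.0530) and S100a8 (0.0643) lost their calls.

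Lcn2, lipocalin 2, binds bacterial siderophores and so withholds iron. It was at 8.93 and 12.62 in GM-DC, against 13.49 and 13.56 in GM-MPP, with a difference of -2.75 ± 1.82 (adjusted p = 0.449). Here it was the number-2 array of GM-DC that stood close to the progenitors. Chil3, also called Ym1, is a chitinase-like lectin of granulocytes and of some macrophages. Chil3 had 13.49 and 13.38 in GM-DC, against 13.90 and 13.92 in GM-MPP, a difference of -0.48 ± 0.12 that did not pass (adjusted p = 0.0923). These levels were all near the array maxima, where differences and spreads are compressed. The probe set shared with Chil4 read 13.53 and 13.35 in GM-DC and 14.01 and 14.22 in GM-MPP. Chil3 and Chil4 are near-identical neighbours, so part of the Chil3 signal may come from Chil4. How much was not tested.

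These calls rested on all 4 arrays. Without GM-MPP array 1, GM-MPP array 2 or GM-DC array 2 none of the 9 genes was called, and without GM-DC array 1 only Cd177 was, where the lone array is assumed to vary like the other groups.

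**Figure D1:**
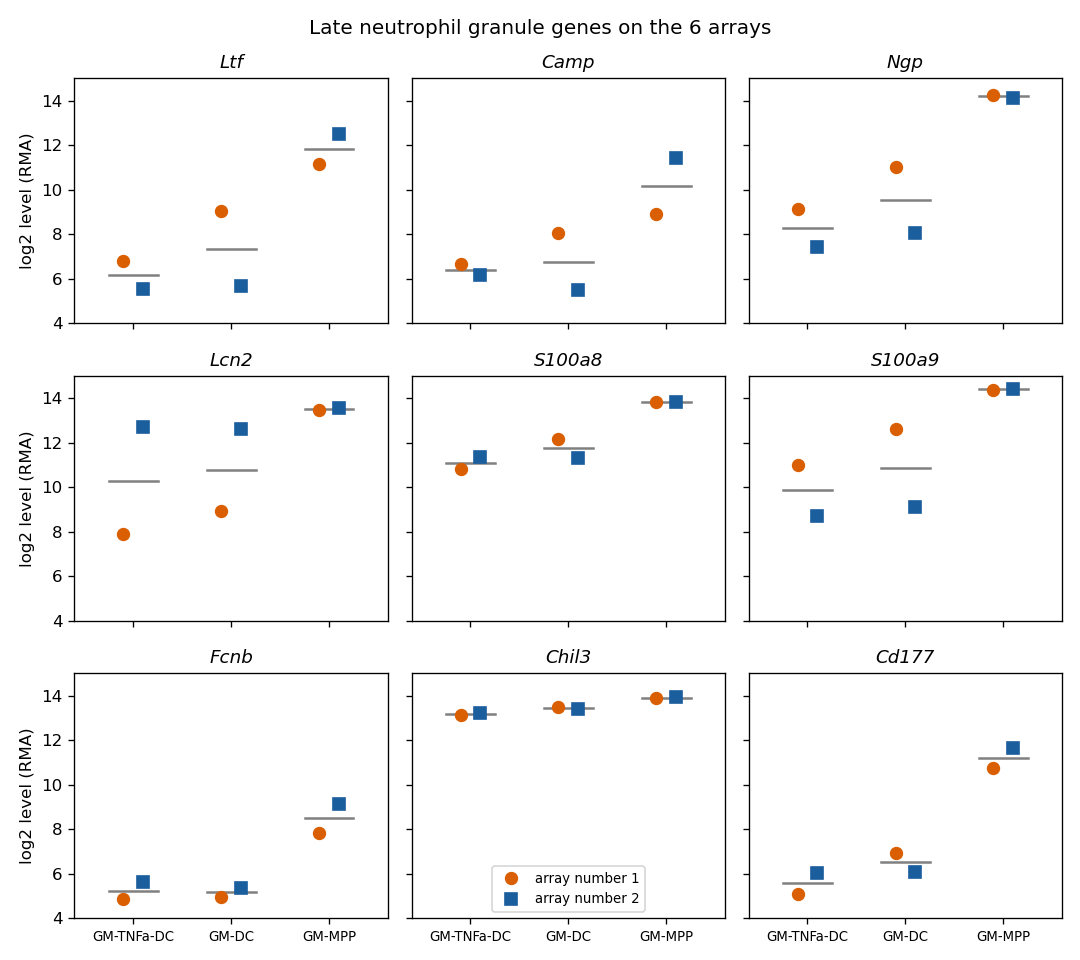
Each panel plots 1 gene, with the log2 level (RMA) on the vertical axis and the groups GM-TNFa-DC, GM-DC and GM-MPP along the horizontal one. Circles are number-1 arrays, squares number-2 arrays and grey lines group means (n = 2). GM-MPP is highest for all 9 genes, and the dendritic cell arrays part widely for Ltf, Ngp, S100a9 and, the other way round, Lcn2.

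With TNFa added to GM-CSF, the dendritic cells again had less of all 9 transcripts than the progenitors, and 6 passed the threshold: Cd177, S100a8, Fcnb, Chil3, Ngp and Ltf. The comparison shares its GM-MPP arrays with the one above. Its member median was -3.77, against 0.05 over all genes. The 6 of 9 called lower and the 0 called higher compare with 4.26% and 2.77% of all genes. Of the 9, 7 were at least 2-fold lower on both numbers, against 5.32% of all genes. All 9 had arrays that did not overlap, which 26.1% of all genes shared in that direction, and 30.7% of all genes were lower on both numbers.

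Cd177 was at 5.11 and 6.04 on GM-TNFa-DC arrays 1 and 2, against 10.77 and 11.67 in GM-MPP, and fell by 5.65 ± 0.50 (adjusted p = 0.00732). S100a8 was at 10.81 and 11.38 in GM-TNFa-DC and at 13.81 and 13.83 in GM-MPP (-2.73 ± 0.33, adjusted p = 0.0151). Fcnb was at 4.88 and 5.62 in GM-TNFa-DC and at 7.84 and 9.15 in GM-MPP (-3.25 ± 0.49, adjusted p = 0.0245). All 3 of these genes had GM-TNFa-DC arrays within 1 log2 unit of each other. Ngp was at 9.14 and 7.42 in GM-TNFa-DC and at 14.26 and 14.13 in GM-MPP, 60.2-fold lower (-5.91 ± 1.04, adjusted p = 0.0343). Ltf was at 6.80 and 5.52 in GM-TNFa-DC and at 11.15 and 12.51 in GM-MPP, 50.9-fold lower (-5.67 ± 1.15, adjusted p = 0.0475). Neither fold is exact, since Ngp was near the array maxima in GM-MPP and Ltf was low on GM-TNFa-DC array 2. The Ltf call sat at the threshold and was lost under 6 other settings of the analysis that kept every array of the comparison (adjusted p between 0.0511 and 0.0636).

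Chil3 differed least. It was at 13.14 and 13.20 in GM-TNFa-DC, against 13.90 and 13.92 in GM-MPP, and its small fall of 0.75 ± 0.12 passed (adjusted p = 0.0281), with little spread between its arrays. All these values were near the array maxima, so both the fall and the spread of Chil3 may be compressed. The Chil3 call was lost with only the 4 arrays of the comparison in the fit (adjusted p = 0.0609). S100a9 was at 11.01 and 8.72 in GM-TNFa-DC, against 14.35 and 14.43 in GM-MPP (-4.52 ± 1.25, adjusted p = 0.0955). With the array number in the model S100a9 had an adjusted p of 0.0373 on all 6 arrays and of 0.0723 on only the 4 compared. Camp was at 6.65 and 6.18 in GM-TNFa-DC, against 8.93 and 11.43 in GM-MPP (-3.77 ± 1.09, adjusted p = 0.105). Lcn2 was at 7.88 and 12.71 in GM-TNFa-DC, against 13.49 and 13.56 in GM-MPP (-3.23 ± 1.82, adjusted p = 0.330). Without GM-MPP array 1 or GM-MPP array 2 the count of called genes was 0, without GM-TNFa-DC array 1 it was 1, and without GM-TNFa-DC array 2 it was 3.

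**Figure D2:**
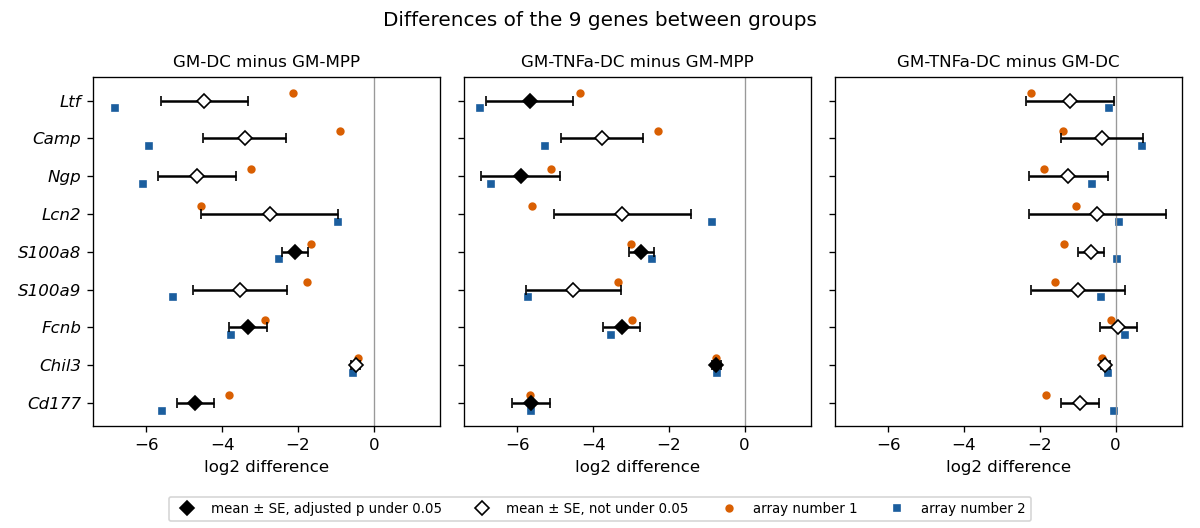
Log2 differences of the 9 genes in each comparison, with diamonds for the group difference ± SE (2 arrays a group, filled where the limma adjusted p is under 0.05), circles for the number-1 pair of arrays and squares for the number-2 pair. Every symbol in the GM-DC and GM-TNFa-DC comparisons with GM-MPP lies left of 0, while for GM-TNFa-DC minus GM-DC 8 of 9 group differences and all 9 number-1 differences lie below 0, and the number-2 differences have a median of -0.04.

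Setting GM-TNFa-DC against GM-DC asks for the effect of TNFa on top of GM-CSF. None of the 9 genes passed, as 0% of all genes did (limma, lowest adjusted p = 1, with 270 genes higher and 140 lower at an unadjusted p under 0.05). The means of 8 of the 9 were lower with TNFa, with a member median of -0.65 against 0.01 over all genes. On number 1 all 9 were lower with TNFa (median -1.40), and on number 2 it was 5 of 9 (median -0.04). Those 5 were lower on both numbers, as were 26.3% of all genes. Lower in both GM-TNFa-DC arrays than in both GM-DC arrays were 2 genes, as were 10.6% of all genes. Cd177 was at 5.11 and 6.04 in GM-TNFa-DC and at 6.95 and 6.08 in GM-DC (-0.94 ± 0.50), and Chil3 was at 13.14 and 13.20 in GM-TNFa-DC and at 13.49 and 13.38 in GM-DC (-0.27 ± 0.12). The differences on number 1 were -2.23 for Ltf, -1.88 for Ngp, -1.84 for Cd177, -1.59 for S100a9, -1.40 for Camp and -1.35 for S100a8. On number 2 the same genes had -0.17, -0.62, -0.04, -0.39, 0.69 and 0.05. GM-MPP was highest for all 9 genes.

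The 2 arrays of each dendritic cell group differed more for several of these genes than GM-TNFa-DC differed from GM-DC. Lcn2 was at 12.71 on number 2 and 7.88 on number 1 of GM-TNFa-DC, and at 12.62 on number 2 and 8.93 on number 1 of GM-DC. In GM-MPP Lcn2 was at 13.56 on number 2 and 13.49 on number 1. Lcn2 was thus 28.4-fold higher on number 2 of GM-TNFa-DC and 12.9-fold higher on number 2 of GM-DC, while the progenitor arrays hardly differed. The progenitor values were near the array maxima, where a difference is compressed. Over the 4 dendritic cell arrays the difference was 4.26 ± 0.28 (limma with the group as a term, adjusted p = 0.00331). Tests of the array number take same-numbered GM-DC and GM-TNFa-DC arrays as separate samples, which the labels do not state. Their p-values reflect how alike the 2 groups were in this difference, not a spread over independent cultures. The test of whether this number difference differs from that in GM-MPP also passed (4.18 ± 0.48, adjusted p = 0.0300). Of all genes, 6.41% were called higher on number 2. In the test against GM-MPP 1.61% were called higher and 0.923% lower, and of the 9 genes Lcn2 was called higher and none was called lower. At least 2-fold higher on number 2 in both dendritic cell groups was 1 of the 9, against 3.2% of all genes.

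S100a9, Ngp and Ltf ran the other way. S100a9 was at 8.72 on number 2 and 11.01 on number 1 of GM-TNFa-DC, and at 9.12 on number 2 and 12.60 on number 1 of GM-DC, a difference of -2.88 ± 0.29 (adjusted p = 0.00759). Ngp was at 7.42 on number 2 and 9.14 on number 1 of GM-TNFa-DC, and at 8.04 and 11.02 on those of GM-DC (-2.35 ± 0.31, adjusted p = 0.0151). Ltf was at 5.52 on number 2 and 6.80 on number 1 of GM-TNFa-DC, and at 5.69 and 9.03 on those of GM-DC (-2.30 ± 0.49, adjusted p = 0.0471). These 3 of 9 called lower compare with 5.41% of all genes. They were also the 3 that were at least 2-fold lower on number 2 in both dendritic cell groups, against 2.06% of all genes. The Ltf call was lost under 4 other settings (adjusted p between 0.0509 and 0.0594). Camp pointed the same way without passing (-1.51 ± 0.49, adjusted p = 0.131).

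S100a8 did not follow its partner. It was at 11.38 on number 2 and 10.81 on number 1 of GM-TNFa-DC, and at 11.32 on number 2 and 12.16 on number 1 of GM-DC, so that the difference over both groups was -0.13 ± 0.33 (adjusted p = 0.844). Whether the pair differ from each other in this was not tested. Cd177 (0.03 ± 0.43, adjusted p = 0.974), Chil3 (-0.02 ± 0.10, adjusted p = 0.910) and Fcnb (0.56 ± 0.16, adjusted p = 0.103) did not pass either. For the other 8 genes the test against the number difference of GM-MPP did not pass (adjusted p = 0.0576 for S100a9, 0.0950 for Camp and at least 0.110 for the rest). These fits have 1 residual degree of freedom, so that smaller differences can be missed. What gave the difference in the poly-A controls, and its part in these results, was not tested.

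**Figure D3:**
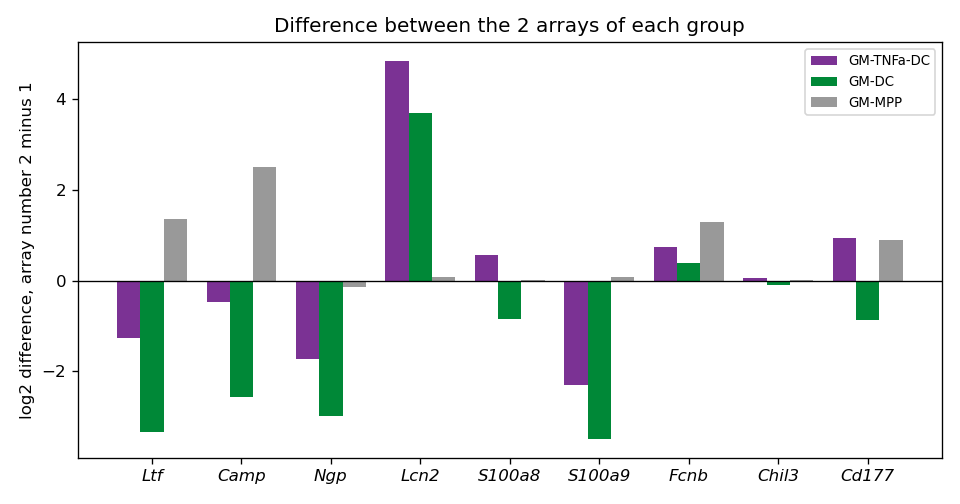
Bars give the log2 difference between the 2 arrays of a group, number 2 minus number 1, for each gene in GM-TNFa-DC, GM-DC and GM-MPP (1 array on each side, so no error bar). Lcn2 lies at 4.83 in GM-TNFa-DC and 3.69 in GM-DC, S100a9, Ngp and Ltf lie below 0 in both, and Ltf and Camp lie above 0 in GM-MPP.

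As a description over 6 arrays, which share their groups and numbers, 8 of the 9 genes followed the mean of all members (each centred on its own mean, with that gene included) at Pearson r between 0.90 and 0.99, and Lcn2 at 0.54. Lcn2 had its lowest correlation with S100a9, 0.15, whereas Ltf and Ngp were at 0.98 and Cd177 and S100a8 at 0.99. Of the 1949 other genes with a range of at least 2 log2 units, those most like the member mean were Exosc5, an RNA exosome subunit (r = 0.992), the interleukin-1 decoy receptor Il1r2 (0.991), Chil4 (0.991), the RNA polymerase I subunit Polr1a (0.990) and Mcpt8, a basophil protease (0.989). Il1r2 was at 8.30 and 8.58 in GM-TNFa-DC, at 9.68 and 8.77 in GM-DC and at 12.53 and 12.45 in GM-MPP.

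Other neutrophil genes, and then further lists, were set beside the 9. Of all genes, 2.63% were called lower and 1.87% higher in GM-DC than in GM-MPP. For GM-TNFa-DC against GM-MPP the shares were 4.26% and 2.77%. On number 2 of the dendritic cells they were 5.41% and 6.41%. The counts of calls in each list below are to be read beside these shares. Of 7 measured genes of primary granules, the first to be made, 5 were called lower and 1 higher in GM-DC than in GM-MPP, with a list median of -6.35 against -3.41 for the late genes. Mpo, myeloperoxidase, was at 4.97 and 4.04 in GM-DC and at 11.84 and 13.05 in GM-MPP (-7.94 ± 0.55, adjusted p = 0.00476), and Elane, neutrophil elastase, differed by -6.35 ± 0.31 (adjusted p = 0.00219). Ctsc, the protease that activates the serine proteases of these granules, was higher by 1.52 ± 0.20 (adjusted p = 0.0215). Between the array numbers of the dendritic cells, Ctsg, cathepsin G (-1.22 ± 0.15, adjusted p = 0.0117), and Mpo (-0.88 ± 0.13, adjusted p = 0.0208) were called lower on number 2. Srgn, the proteoglycan serglycin that packs granule proteins (1.17 ± 0.11, adjusted p = 0.00593), and Prtn3, proteinase 3 (0.84 ± 0.14, adjusted p = 0.0280), were called higher. Mpo was near or below the array medians on every dendritic cell array, at 3.43 on number 2 and 4.27 on number 1 of GM-TNFa-DC. Its number difference is therefore not exact. The same holds for Ctsg, at 4.69 on number 2 of GM-TNFa-DC and at 5.41 on number 2 of GM-DC. Elane did not pass (0.02 ± 0.21, adjusted p = 0.970), at 5.41 on number 2 and 5.03 on number 1 of GM-TNFa-DC and at 5.45 on number 2 and 5.79 on number 1 of GM-DC. In GM-TNFa-DC against GM-MPP the same list had 5 called lower, 1 called higher and a median of -6.88.

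Of 17 other granule, membrane and secreted proteins of neutrophils, 9 had a lower and 8 a higher mean in GM-DC than in GM-MPP (median -0.20), with 1 called lower and none called higher. The 1 called was Pglyrp1, a peptidoglycan recognition protein of the later granules, at 6.32 and 4.67 in GM-DC and 11.08 and 11.55 in GM-MPP (-5.82 ± 0.63, adjusted p = 0.0140). In GM-TNFa-DC against GM-MPP the only one called was again Pglyrp1 (-6.01 ± 0.63, adjusted p = 0.0111). Between the array numbers of the dendritic cells this list split like Lcn2, with 10 of 17 called higher on number 2 and 1, Pglyrp1, called lower (median 1.30, against 0.03 over all genes). Pglyrp1 was at 4.76 on number 2 of GM-TNFa-DC and at 4.67 on that of GM-DC. These levels were at the array medians, so its number difference is not exact. Hp, haptoglobin, was at 10.92 on number 2 and 6.00 on number 1 of GM-TNFa-DC and at 10.05 and 5.80 on those of GM-DC (4.59 ± 0.20, adjusted p = 0.00188). Itgam, the integrin CD11b, differed by 4.10 ± 0.25 (adjusted p = 0.00288), and Slc11a1, a metal transporter of phagosomes, by 3.54 ± 0.17 (adjusted p = 0.00188).

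The collagenase Mmp8 stood at 13.08 on number 2 and 9.15 on number 1 of GM-TNFa-DC, at 13.39 and 11.27 on those of GM-DC and at 13.45 and 13.32 on those of GM-MPP. The gelatinase Mmp9 was at 8.74 and 4.58 on numbers 2 and 1 of GM-TNFa-DC, at 8.08 and 5.77 on those of GM-DC and at 8.66 and 5.89 on those of GM-MPP. Both were called higher on number 2 of the dendritic cells (adjusted p = 0.0167 and 0.0159).

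Of 15 markers of mature neutrophils 9 were measured, since Ly6g and 5 others had no single-gene probe set. In GM-DC against GM-MPP, 7 had a lower and 2 a higher mean. Of these, 2 were called lower and none was called higher: Itgb2l, an integrin subunit (-4.52 ± 0.45, adjusted p = 0.0120), and the receptor Trem3 (-4.19 ± 0.57, adjusted p = 0.0242). Both were also the only ones called in GM-TNFa-DC against GM-MPP. The G-CSF receptor Csf3r (-2.10 ± 0.62, adjusted p = 0.131) and the chemokine receptor Cxcr2 (-2.29 ± 0.50, adjusted p = 0.0687) did not pass. The mean log2 level of the 9 markers was 7.99 on number 2 and 6.85 on number 1 of GM-TNFa-DC, 7.89 and 7.29 on those of GM-DC, and 9.23 and 8.80 on those of GM-MPP. On number 2 of the dendritic cells 4 of the 9 were called higher and 2 called lower, among the higher Padi4, which citrullinates histones (3.46 ± 0.17, adjusted p = 0.00191). The part of mature neutrophils in the levels of the late granule genes was not tested.

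Transcription factors of granulocytes were measured for 10 of 11 genes, with Cebpe not among them. In GM-DC against GM-MPP, 5 had a lower and 5 a higher mean, and 2 were called, both lower: Myb, a progenitor factor (-6.42 ± 0.52, adjusted p = 0.00616), and Gfi1, a repressor needed for neutrophil formation (-5.03 ± 0.63, adjusted p = 0.0197). In GM-TNFa-DC they were also called lower than in GM-MPP, and Irf8, a factor of monocytes and dendritic cells, was called higher (3.64 ± 0.69, adjusted p = 0.0411). Between array numbers, 8 of the 10 had a lower mean on number 2. Cebpa, the early granulocyte C/EBP factor, was called lower (-2.30 ± 0.14, adjusted p = 0.00288), as was Cebpd (-1.86 ± 0.26, adjusted p = 0.0174), while Cebpb was called higher (0.90 ± 0.14, adjusted p = 0.0203) and Gfi1 was called higher (1.41 ± 0.15, adjusted p = 0.00837). Gfi1 was at 5.44 on number 2 and 3.89 on number 1 of GM-TNFa-DC and at 4.95 and 3.68 on those of GM-DC. These levels were near or below the array medians, so the Gfi1 difference is not exact. Runx1 was the third factor called lower on number 2.

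Monocyte and macrophage markers, the other cells such cultures hold, were called in both directions between numbers, with 3 of 13 called higher and 4 called lower on number 2. Cd14, the lipopolysaccharide co-receptor, was at 13.18 on number 2 and 8.50 on number 1 of GM-TNFa-DC and at 12.50 and 7.48 on those of GM-DC (4.85 ± 0.14, adjusted p = 0.00188). Mrc1, among the 4 called lower, was at 6.73 on number 2 and 10.22 on number 1 of GM-TNFa-DC. On those of GM-DC it was at 8.48 and 11.85 (-3.43 ± 0.13, adjusted p = 0.00188). The mean log2 level of the 13 markers was 9.45 on number 2 and 9.02 on number 1 of GM-TNFa-DC, 9.81 and 9.57 on those of GM-DC and 8.67 and 7.85 on those of GM-MPP. Against GM-MPP, 11 of these markers had a higher and 2 a lower mean in GM-DC, with 3 called higher and none called lower. Of 12 markers of mast cells, basophils and eosinophils, 2 were called lower in GM-DC than in GM-MPP, and 4 were called lower on number 2 than on number 1 of the dendritic cells. The part of such cells in the Lcn2 difference was not tested.

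**Figure D4:**
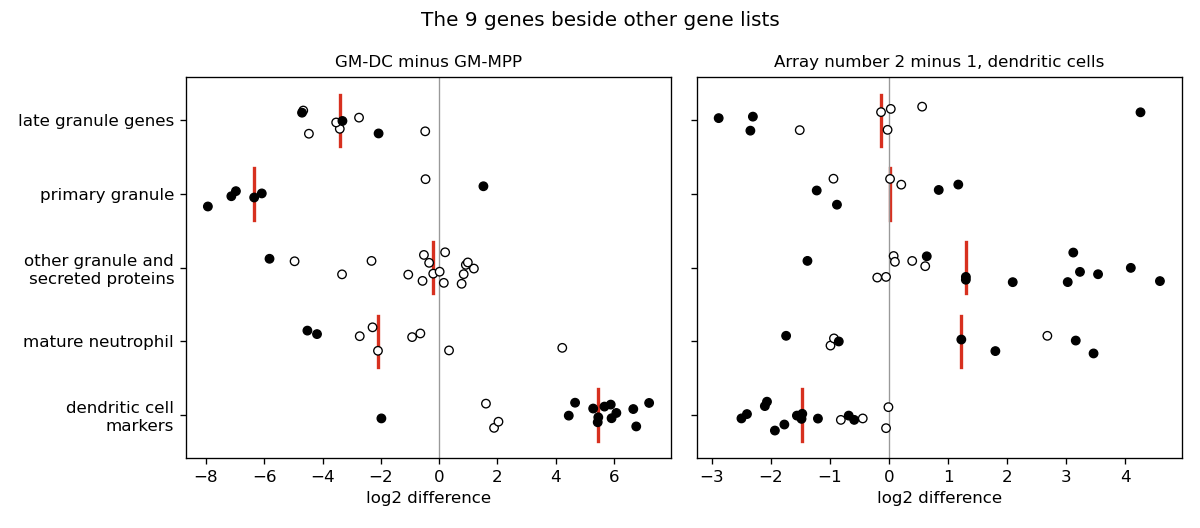
Points are genes, with the log2 difference of GM-DC minus GM-MPP (left) and of array number 2 minus 1 over the 4 dendritic cell arrays (right), filled where the limma adjusted p is under 0.05, and red lines are list medians. Late granule genes lie below 0 on the left with a median of -3.41, and on the right they spread on both sides of 0 with Lcn2 at 4.26.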

How the data were processed

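The deposited table holds log2 values that the authors made with RMA, per the submitters' processing notes, and with Bioconductor, per the labels. RMA corrects background, quantile-normalizes arrays and summarises probes. The sources used here do not give its version or which arrays were normalized together, and the log2 scale was inferred from the range of 1.89 to 14.43. No detection call was used. Having 2 arrays per group limits the precision.

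Probe sets were named by the platform annotation, with symbols updated through Entrez identifiers to RefSeq (GRCm38.p6). Of 45101, 64 were controls, 34945 had 1 symbol, 932 several and 9160 none listed. Where a gene had several single-symbol probe sets, the one with the highest mean over all arrays stood for it. Groups came from the sample titles. The tests used lmFit and eBayes of limma (version 3.58.1, R 4.3.3), with a trend of variance on intensity, 3 groups and 3 residual degrees of freedom, and p-values were adjusted by Benjamini-Hochberg over 18193 genes. The array number was tested on the 4 dendritic cell arrays with the group as a term, and against GM-MPP on all 6. Both tests count same-numbered GM-DC and GM-TNFa-DC arrays as independent, which is not known. The fits were tested on simulated data. Errors after ± are moderated standard errors. The 9 genes, the other lists and the tests were chosen with earlier results of these data known. Named besides the 9 were up to 3 called genes per list and comparison with the largest change, a fixed panel and the 5 most alike genes; the text gives part of them. Flt3, Ctsc, Prtn3, Cebpb, Runx1 and Tlr4 fall outside this rule and were chosen after their values were seen. Tables were made with Python 3.11.15, and plots with matplotlib 3.10.9.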

Additional observations from a re-analysis of the deposited data

Results flagged for a closer look

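The difference between the 2 arrays of a group had the opposite sign in GM-MPP from that in both dendritic cell groups for 3 of the 9 genes, a pattern of signs that was not itself tested. For Ltf, number 2 minus number 1 was -1.27 in GM-TNFa-DC, -3.34 in GM-DC and 1.36 in GM-MPP. For Camp it was -0.47 in GM-TNFa-DC, -2.56 in GM-DC and 2.50 in GM-MPP, so that the progenitor array with the most Camp carries the same number as the GM-DC array with the least. For S100a9 it was -2.29 in GM-TNFa-DC, -3.48 in GM-DC and only 0.08 in GM-MPP, where the probe set was near the array maximum. The fit of the difference did not pass for any of them (adjusted p = 0.110 for Ltf, 0.0950 for Camp and 0.0576 for S100a9).

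Lcn2 was the 1 gene of the 9 whose number difference in the dendritic cells differed from that in GM-MPP in the fit, by 4.18 on the log2 scale (limma adjusted p = 0.0300). Its GM-MPP arrays were near the array maximum too, where a difference is compressed.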

How the results depend on the processing

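For GM-DC against GM-MPP, the counts of genes lower and higher were 479 and 340 as reported, 732 and 519 over all probe sets, 849 and 627 with the replicate number as a block, and 125 and 151 with that block on only the 4 arrays compared, a setting chosen after seeing the data in which 1 of the 9 genes was called. Leaving out each array in turn gave 0 to 3 of the 9 genes, with 30 to 371 genes lower and 20 to 346 higher. For GM-TNFa-DC against GM-MPP, 775 genes lower and 504 higher became 1251 lower over all probe sets, 446 and 303 with only the 4 arrays compared, 1210 and 850 with the block, and 116 and 144 with the block on those 4 arrays. Leaving out each array gave 0 to 6 of the 9 genes, 51 to 457 lower and 37 to 303 higher. With the block, 4 and 7 of the 9 genes were called, against 3 and 6. The titles do not say that a number marks a shared culture. The number differences correlated across genes at 0.806 between GM-TNFa-DC and GM-DC, but at 0.072 and 0.105 with GM-MPP.

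For GM-TNFa-DC against GM-DC no setting called any of the 9. Leaving out each array in turn turned the sign of 6 genes, with log2 differences between -2.868 and 0.468 for Ltf, -1.637 and 0.919 for Camp, -2.737 and 0.241 for Ngp, -2.893 and 1.936 for Lcn2, -2.73 and 0.751 for S100a9, and -0.299 and 0.441 for Fcnb. For array number 2 minus 1, 984 genes lower became 1553 over all probe sets. In the test against GM-MPP, a second quantile normalization gave 266 genes lower against 168, called S100a9 as 1 gene lower, and turned Chil3 to 0.017. The array number tests could not be run with an array left out, since no residual degree of freedom remained. In comparisons with GM-MPP all 9 genes kept their direction under every setting run. Leaving out arrays or changing the fit could not have turned it, since each gene's dendritic cell arrays all lay below both GM-MPP arrays. The cause of the changes was not tested.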

Other observations

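Of 13 measured family relatives of the 9 genes, Chil4, the neighbour of Chil3, was called lower in GM-DC (-1.87 ± 0.20, limma adjusted p = 0.0125) and in GM-TNFa-DC (-2.48 ± 0.20, adjusted p = 0.00539) than in GM-MPP, and no other passed in either comparison. Chil4 was at 4.44 and 4.42 in GM-TNFa-DC, at 5.19 and 4.89 in GM-DC and at 6.77 and 7.06 in GM-MPP, so its dendritic cell values were near the array medians. Chil1, another chitinase-like protein, was at 5.79 and 5.05 in GM-TNFa-DC, 5.29 and 4.46 in GM-DC and 7.86 and 10.87 in GM-MPP (adjusted p = 0.0674 for GM-DC against GM-MPP). Like Camp, it was higher on number 2 than on number 1 of GM-MPP and lower on number 2 of both dendritic cell groups. Unlike for Camp, the test against the number difference of GM-MPP passed for Chil1 (-3.80 ± 0.25, limma adjusted p = 0.0226). Its number-2 dendritic cell values, 5.05 and 4.46, were near the array medians. Between array numbers of the dendritic cells, 3 of the 13 relatives (S100a1, Chil1 and S100a4) were called lower on number 2 and 0 higher. Fcna, the ficolin of macrophages, stayed between 5.13 and 5.72 on all 6 arrays. The calcium-binding S100a4 was at 12.86 and 12.19 in GM-TNFa-DC, 12.87 and 12.34 in GM-DC and 11.95 and 11.38 in GM-MPP, above its GM-MPP values on every dendritic cell array, without passing (adjusted p = 0.190 for GM-TNFa-DC against GM-MPP).

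Of 10 receptors and binding partners of these proteins, Lrp1, an uptake receptor for lactoferrin among other ligands, was called higher in GM-DC (2.54 ± 0.28, adjusted p = 0.0139) and in GM-TNFa-DC (2.63 ± 0.28, adjusted p = 0.0108) than in GM-MPP, and none was called lower. Between array numbers of the dendritic cells 8 of the 10 had a higher and 2 a lower mean on number 2, with 4 called higher and none called lower. Those called were Fpr2, a formyl peptide receptor that also binds cathelicidin peptides (1.80 ± 0.14, adjusted p = 0.00391), Pecam1, a ligand of CD177 (1.74 ± 0.27, adjusted p = 0.0222), Bsg, a receptor for S100A9 (1.21 ± 0.13, adjusted p = 0.00831), and Tlr4, a receptor for calprotectin (1.02 ± 0.13, adjusted p = 0.0125).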
